A study of Schmidtea mediterranea with 32 samples.

Results

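Among 93783 contigs carrying the prefix SmedSXL in a table of 177783 reference sequences, 57 were already low in planarians after 4 feedings under RNAi against nhr-1. They were chosen by their measured values. The mean control level at 4 feedings had to be at least 5 CPM (a contig's counts scaled for depth by the library's SmedSXL total, the most abundant contig left out), the nhr-1 RNAi mean had to be at most 0.25 of the control mean after 0.1 CPM was added to both, every nhr-1 RNAi library had to lie below every control library, and the control mean had to grow less than 3-fold from 4 to 8 feedings. Of 14615 contigs above the floor, 109 met the ratio, 60 of these showed no overlap between the libraries, and 57 also met the limit on control growth. Values at 4 feedings are therefore a description of the choice, and the measurements that follow come from libraries sampled after 6, 8 and 11 feedings. The prefix is read here as a transcript assembly of sexual animals, which is an inference from the names.

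The libraries hold poly(A) RNA from whole planarian flatworms (Schmidtea mediterranea) of the sexual biotype labelled S2F2. Animals received RNAi against nhr-1 or control RNAi labelled UNC, and were sampled after 4, 6, 8 or 11 feedings. There are 8 groups, 7 of them with 4 libraries and the control at 6 feedings with 3, and 1 further control library labelled 7 feedings is shown but entered no comparison. In each of the 8 groups 1 library is named 1 and the others have names that begin with s. The labels give neither the age of the animals nor how many were pooled, and do not say that libraries came from separate cultures, so p-values measure the spread between these libraries.

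Sexual planarians are hermaphrodites whose testes, ovaries, yolk glands and copulatory organs differentiate after hatching from somatic stem cells and are lost and rebuilt with food supply. Nuclear hormone receptors are transcription factors that bind DNA and often respond to lipid-soluble ligands. In this species nhr-1 is known to be needed for the development and maintenance of the reproductive organs, and RNAi is usually given by feeding double-stranded RNA, so the number of feedings counts both doses and time. Identifiers in the table come without gene names, so no contig could be assigned to an organ and no cell type marker could be matched. The target's own level was not analysed here. In RNA from whole animals, fewer cells of a type and less RNA per cell cannot be told apart.

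Counts on SmedSXL contigs ranged from 4.91 to 9.13 M (mega) per library, and the median was 6.86 M. The most abundant contig took 6.77% to 47.5% of them, and took over 30% in control libraries s2 and s3 after 11 feedings and in nhr-1 RNAi library s2 after 4. These 3 libraries stand apart from the rest, and main values at 11 feedings are also given without them.

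The 57 contigs were 201 to 3056 bases long with a median of 554 bases. In the control libraries at 4 feedings their mean levels spanned 5.07 to 455 CPM with a median of 29.7 CPM, and per kilobase of contig 2.77 to 905 CPM with a median of 51.8 CPM. The 6 most abundant held 47.8% of their summed control level. They need not be 57 separate genes. Over the 31 libraries compared, 8 of them fell into 3 groups whose log2 counts correlated at r over 0.99, which leaves 52 separate patterns, and 7 carry an identifier number next to that of another member. The ratio at 4 feedings was 0.240, 0.241 and 0.2497 in the 3 contigs just inside the threshold and 0.255 in each of the 3 just outside it, so no gap separated members from the contigs beyond them. The label calls the contigs lost, but at 4 feedings 1.41% to 24.97% of the control level was left, with a median of 15.3%, and none had 0 counts in all 4 nhr-1 RNAi libraries.

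At 6 feedings the contigs together measured 3391 CPM in control replicate 1, 3031 CPM in s1 and 2437 CPM in s2. Under nhr-1 RNAi their summed level was 62.3 CPM in replicate 1, 140.2 CPM in s1, 130.1 CPM in s2 and 133.5 CPM in s3. The lowest control library lay far above the highest nhr-1 RNAi library. At 8 feedings the summed level was 3640, 6743, 5717 and 4072 CPM in control replicates 1, s1, s2 and s3, and 72.2, 53.4, 69.1 and 159.3 CPM in the nhr-1 RNAi replicates of the same names. At 11 feedings it was 2890, 7733, 9363 and 12923 CPM in control replicates 1, s1, s2 and s3, against 58.4, 58.8, 54.8 and 63.1 CPM in nhr-1 RNAi replicates 1, s2, s3 and s4. The groups did not overlap at any of these times, and the nhr-1 RNAi libraries were closest to each other at 11 feedings. The group means were 2953 ± 482 (SD, n = 3), 5043 ± 1444 (SD, n = 4) and 8227 ± 4166 CPM (SD, n = 4) in the controls at 6, 8 and 11 feedings. Without controls s2 and s3 at 11 feedings the mean there was 5311 ± 3425 CPM (SD, n = 2). Under nhr-1 RNAi they were 116.5 ± 36.4, 88.5 ± 47.9 and 58.8 ± 3.38 CPM (SD, n = 4 each). In counts, the 57 contigs drew 304 to 459 reads per library under nhr-1 RNAi at 11 feedings and 19622 to 46457 reads in the controls.

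**Figure D1:**
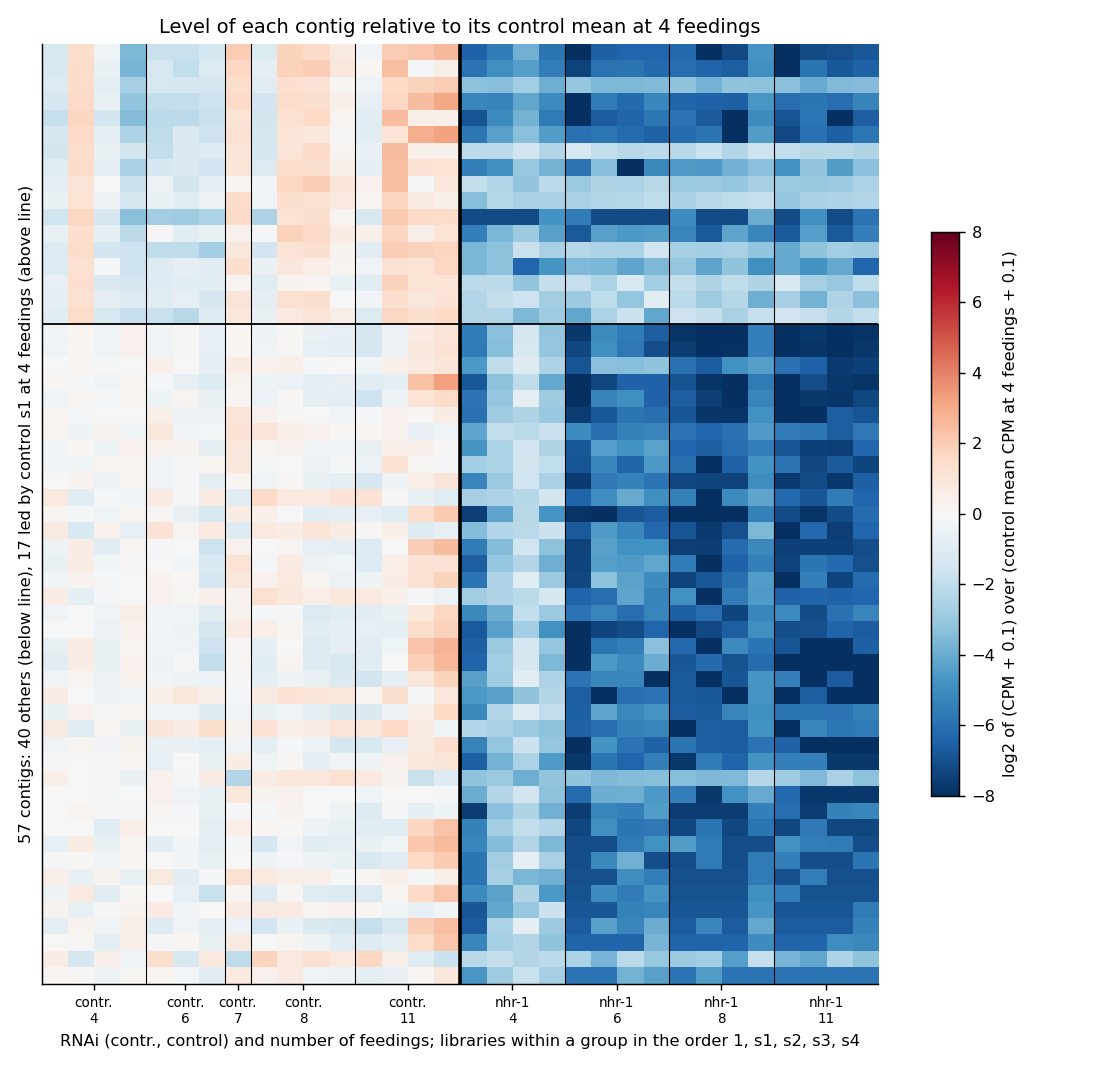
Each row is 1 of the 57 contigs and each column 1 of 32 libraries, coloured by the log2 ratio of its CPM to the contig's mean control level at 4 feedings, with 0.1 CPM added to both. Control libraries stand left of the thick line and nhr-1 RNAi libraries right of it; the rows above the horizontal line are 17 contigs in which control s1 at 4 feedings was at least 2-fold above each other control there, and the nhr-1 RNAi side turns darker after 4 feedings, whose values chose the contigs, mainly below that line.

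Of the 57 contigs, 49 were lower under nhr-1 RNAi at 6 feedings by the quasi-likelihood test of edgeR (Benjamini-Hochberg adjusted p under 0.05), where 9.54% of all 45762 tested sequences were called lower. At 8 feedings all 57 fell, against 11.3% of all tested sequences, and at 11 feedings all 57 fell, against 21.8%. None of the 57 was called higher at 6, 8 or 11 feedings, by edgeR or by DESeq2, and at an unadjusted p under 0.05 the count higher was also 0. The comparison at 8 feedings is not fully independent of the choice, which put an upper limit on the control mean at 8 feedings. Libraries of the 2 groups did not overlap, with nhr-1 RNAi lower, for 53, 57 and 57 contigs at 6, 8 and 11 feedings, and the same held for 14.5%, 14.6% and 9.82% of all tested sequences.

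The median log2 fold change over the 57 contigs was -4.95 at 6 feedings, -6.18 at 8 and -8.07 at 11, beside 0.18, 0.15 and 0.14 over all tested sequences. Single contigs ranged from -7.42 to 0.19 at 6 feedings, from -8.17 to -2.09 at 8 and from -12.68 to -3.14 at 11. The value at 11 feedings moved with the scaling and with the 3 libraries that stand apart. It was -6.997 with total counts in place of TMM factors, under which the median of all tested sequences rose to 0.57, and -6.96 without those 3 libraries, where the median of all tested sequences was 0.01. Relative to all tested sequences the contigs were thus lower by a log2 difference of -8.21, -7.56 and -6.97 under the 3 settings, and all 57 stayed called lower under each.

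As a share of the control level, the median contig kept 3.60% at 6 feedings, 1.67% at 8 and 0.741% at 11. Without controls s2 and s3 the median at 11 feedings was 1.24%, an alternative added after seeing the data. At 11 feedings 37 contigs kept at most 1%, or 26 without those 2 controls, and 54 kept at most 10%, whereas 3 and 48 did at 6 feedings. These shares depend on the 0.1 CPM added to both means. With 1 CPM added, a choice made after seeing the data, the medians were 8.18%, 5.45% and 2.85%, and with nothing added that at 11 feedings was 0.468%. For 26 contigs the ratio became smaller at every step from 4 to 6 to 8 to 11 feedings. This count is a description only, since its first step starts from the values that chose the contigs. The order of the later steps can also depend on the 0.1 CPM added, and no such count is given for other contigs.

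A comparison set of 14452 contigs had the same control floor and the same limit on control growth but failed the ratio, the condition on overlap or both, and 38 of them met the ratio at 4 feedings and overlapped there. Its median share of the control level was 101.2% at 6 feedings, 104.9% at 8 and 113.0% at 11. Contigs called lower made up 15.7%, 17.7% and 30.2% of this set. Part of the comparison contigs therefore also fell by 11 feedings, while the span from the lower to the upper quartile of the set was 54.7% to 167.1% of the control level there. The controls at 11 feedings were unequal. Against the control mean at 4 feedings, the set's median was 100.6% in control replicate 1 and 91.3% in s1. It was 56.1% in s2 and 59.0% in s3, both among the libraries that stand apart. Shares of this set without those controls were not computed.

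**Figure D2:**
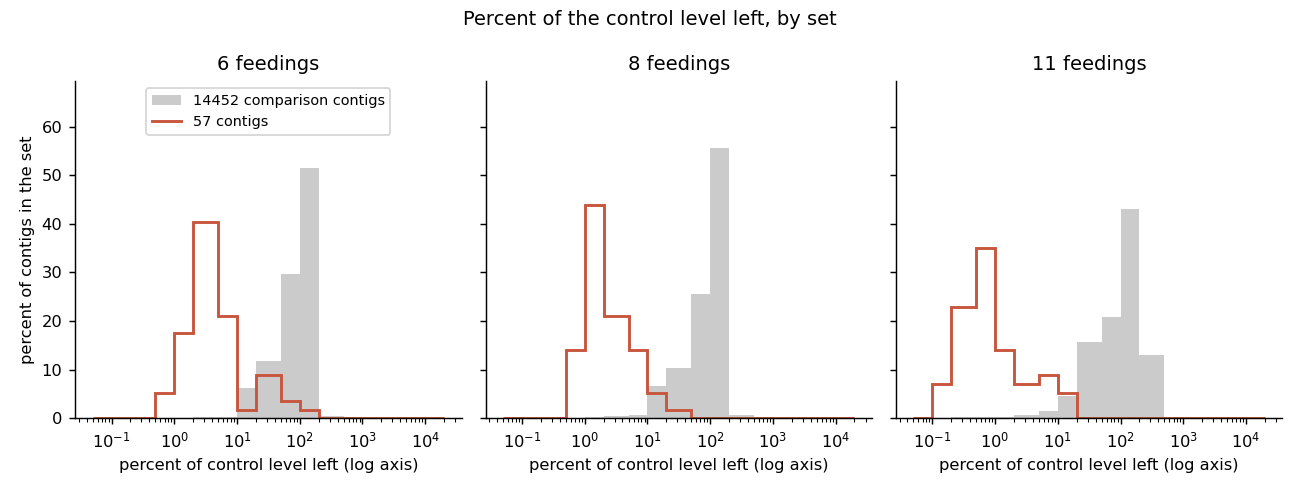
The horizontal log axis gives the nhr-1 RNAi mean as a percent of the control mean, in bins of unequal width, and the vertical axis the percent of contigs of a set in each bin, for the 57 contigs (red line) and the 14452 comparison contigs (grey). The medians of the 57 contigs were 3.60%, 1.67% and 0.741% at 6, 8 and 11 feedings, and those of the comparison contigs lay near 100% at each.

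The nhr-1 RNAi libraries at 4 feedings, whose values chose the contigs, were unequal. Each library's level was set against the contig's mean control level at 4 feedings, and the median over the 57 contigs was taken. This median was 2.10% in nhr-1 RNAi replicate 1 at 4 feedings but 12.5% in s1, 20.04% in s2 and 11.6% in s3. The library named 1 already lay at the level that the libraries named with s reached at 6 feedings, which was 2.56% in s1, 2.29% in s2 and 2.79% in s3, while replicate 1 at 6 feedings stood at 0.546%. At 8 feedings the medians were 1.08%, 0.640%, 0.728% and 3.23% in replicates 1, s1, s2 and s3. At 11 feedings they ran from 0.729% to 1.09%, where the median contig stood at only 0.361 to 0.550 CPM, a level at which few counts leave little room to see a spread between libraries. In the comparison contigs the same median ran from 72.2% to 105.3% over the 4 nhr-1 RNAi libraries at 4 feedings, with the lowest value in s2, and from 88.3% to 91.5% at 11 feedings.

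Taken within one kind of library name, the direction was the same. The nhr-1 RNAi library named 1 lay below the control library named 1 for 56 contigs at 6 feedings, 57 at 8 and 57 at 11; at 4 feedings the choice fixed this order. The mean of the nhr-1 RNAi libraries named with s lay below that of the controls named with s for 56, 57 and 57 at 6, 8 and 11 feedings. The median share of the control level left was 0.938%, 1.55% and 1.71% for the libraries named 1 at 6, 8 and 11 feedings, and 4.50%, 1.89% and 0.601% for those named with s. The share of the libraries named 1 rests on 1 library a group and has no replicate check.

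**Figure D3:**
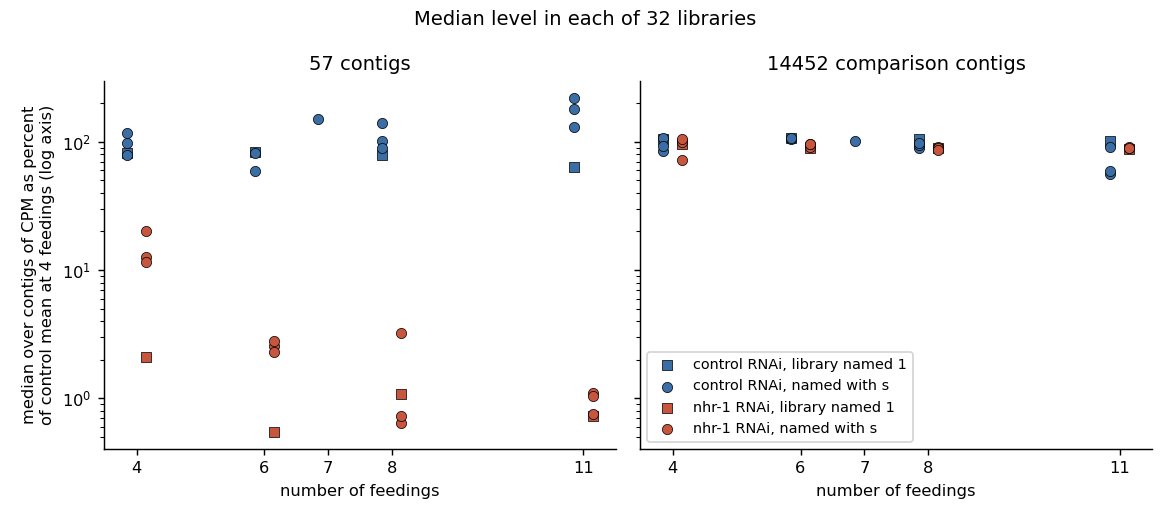
Each point is 1 library, placed by number of feedings; the vertical log axis gives the median, over 57 contigs (left) or 14452 comparison contigs (right), of the level as a percent of the mean control level at 4 feedings. Squares are libraries named 1 and circles those named with s. On the left the nhr-1 RNAi libraries lay between 2.10% and 20.04% at 4 feedings, whose values chose the contigs. At 11 feedings they lay between 0.729% and 1.09%.

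The contigs were split into 2 sets by their control libraries, a split made after the values were seen and so given without a test. In 17 contigs control replicate s1 at 4 feedings was at least 2-fold above each other control library there. Their median level, as a percent of the control mean at 4 feedings, was 273% in s1 but 22.7% to 59.9% in the other 3 controls at 4 feedings. It was 39.0% to 39.8% in the 3 controls at 6 feedings and 216.5% in the library labelled 7 feedings. At 8 and 11 feedings the same contigs were low in the control libraries named 1, at 49.6% and 68.2%, and high in those named with s, at 120.2% to 247% and 215.5% to 361%. The other 40 contigs were steadier in the controls, with medians of 81.6% to 113.8% at 4 feedings, 63.4% to 99.5% at 6, 70.0% to 112.7% at 8 and 61.4% to 210.8% at 11. Low values of the 17 contigs thus recurred in all controls named 1 and all controls at 6 feedings. Controls s2 and s3 at 4 feedings were low as well, at 59.9% and 22.7%. What sets these libraries apart is not given in the labels.

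The levels of both sets under nhr-1 RNAi are given as a description. The choice used the values at 4 feedings and put every nhr-1 RNAi library there below the lowest control, which was low for the 17 contigs, so the size of their fall from 4 feedings was in part fixed by it. The summed level of the 17 contigs was 43.6 to 99.4 CPM over the 4 libraries at 4 feedings, 41.4 to 47.7 CPM at 6, 36.9 to 69.8 CPM at 8 and 35.0 to 40.7 CPM at 11. The range at 11 feedings lay below those at 4 and 6 feedings, and the other ranges overlapped. The summed level of the other 40 contigs was 104.2 to 954 CPM at 4 feedings, 20.9 to 94.8 CPM at 6, 16.5 to 89.5 CPM at 8 and 19.8 to 23.0 CPM at 11. From 6 feedings on these ranges overlapped. All 40 were called lower at 6, 8 and 11 feedings. Of the 17, 9 were called lower at 6 feedings and 17 at both later times.

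The 8 contigs not called at 6 feedings all belonged to the 17, and the median of their mean control level at 6 feedings was 3.31 CPM, beside 11.2 CPM at 4 feedings and 30.3 CPM at 11. The largest share left at 6 feedings was that of a contig of 602 bases. Its control level at 6 feedings was 1.86, 1.90 and 1.14 CPM in replicates 1, s1 and s2, and its nhr-1 RNAi level was 1.55, 1.35, 1.32 and 2.62 CPM in replicates 1, s1, s2 and s3. The groups overlapped, and the log2 fold change was 0.19 ± 0.86 (SE; edgeR quasi-likelihood test, Benjamini-Hochberg adjusted p = 0.940). At 11 feedings its control level was 4.27 CPM in replicate 1, 32.3 CPM in s1, 29.4 CPM in s2 and 26.4 CPM in s3, above all 4 nhr-1 RNAi libraries, which lay between 0.372 and 1.08 CPM. With the library labelled 7 feedings counted among the controls at 6 feedings, 52 of the 57 contigs were called lower in place of 49, against 10.6% of all sequences tested in that fit.

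**Figure D4:**
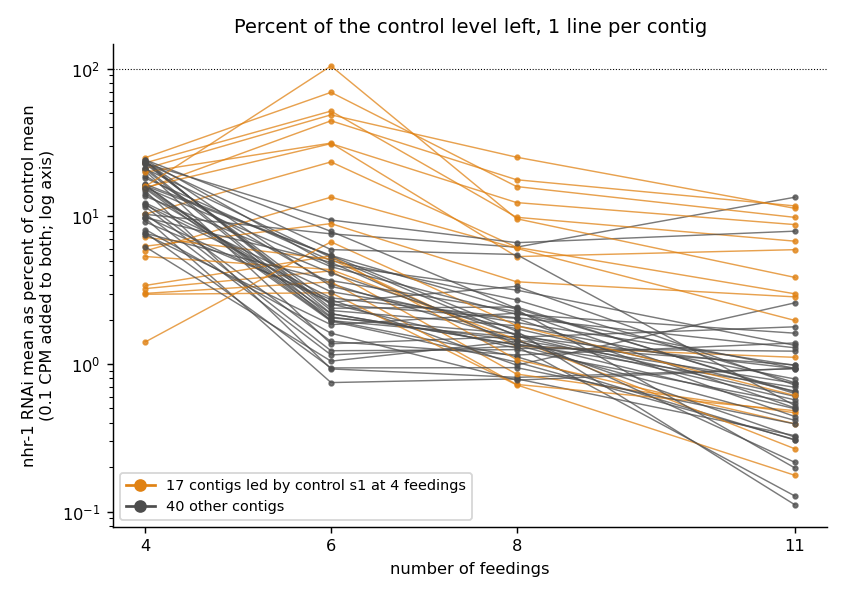
Each line is 1 of the 57 contigs; the horizontal axis is the number of feedings and the vertical log axis the nhr-1 RNAi mean as a percent of the control mean, with 0.1 CPM added to both. The 17 contigs led by control s1 at 4 feedings (orange) had medians of 7.20%, 13.5%, 5.34% and 2.85% at 4, 6, 8 and 11 feedings. The 40 others (grey) had medians of 15.6%, 2.55%, 1.56% and 0.675%. The values at 4 feedings chose both sets.

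SmedSXL_017602, 795 bases long, had the highest mean level over the control libraries of 6 and 11 feedings together, among contigs called lower at 6, 8 and 11 feedings. At 6 feedings it stood at 134.3, 131.9 and 170.5 CPM in control replicates 1, s1 and s2, and at 1.55, 4.87, 5.44 and 5.42 CPM in nhr-1 RNAi replicates 1, s1, s2 and s3. At 8 feedings the controls measured 208.8, 1545, 1324 and 733 CPM in the same order with s3 last, and the nhr-1 RNAi libraries 6.14, 1.14, 2.92 and 16.9 CPM. At 11 feedings the controls measured 379, 1851, 2063 and 2696 CPM in replicates 1, s1, s2 and s3, and nhr-1 RNAi replicates 1, s2, s3 and s4 measured 1.30, 3.05, 3.43 and 4.12 CPM. No library of one group reached the other at these times, and the control named 1 was the lowest control at 8 and 11 feedings. The log2 fold change was -4.90 ± 1.03 (SE) at 6 feedings, -7.17 ± 1.11 at 8 and -9.75 ± 1.24 at 11, with Benjamini-Hochberg adjusted p of 0.00147, 2.66e-05 and 1.12e-06 by edgeR's quasi-likelihood test. Without the 3 libraries that stand apart the value at 11 feedings was -8.59. This contig belongs to the 17, and at 4 feedings its controls ranged from 37.5 CPM in s3 to 1231 CPM in s1.

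SmedSXL_005521, 2697 bases long, kept the largest share of its control level at 11 feedings among the 57, at 13.5%, when all controls were counted. Without controls s2 and s3 there it kept 8.57%, and the largest share was 14.7%, in a contig of 843 bases. At 6 feedings its controls measured 26.3, 19.1 and 31.5 CPM in replicates 1, s1 and s2, and the nhr-1 RNAi libraries 2.13, 1.62, 1.81 and 1.87 CPM in replicates 1, s1, s2 and s3. At 8 feedings the controls measured 31.5, 38.0, 39.7 and 47.9 CPM and the nhr-1 RNAi libraries 1.88, 1.63, 1.69 and 4.15 CPM. At 11 feedings the controls measured 35.3, 25.1, 6.14 and 10.1 CPM in replicates 1, s1, s2 and s3, and nhr-1 RNAi replicates 1, s2, s3 and s4 measured 2.79, 1.72, 3.43 and 2.06 CPM. The groups did not overlap, but controls s2 and s3 at 11 feedings, 2 of the libraries that stand apart, were far below the other controls. The log2 fold change was -3.64 ± 0.34 (SE) at 6 feedings, -4.06 ± 0.33 at 8 and -3.14 ± 0.32 at 11, with Benjamini-Hochberg adjusted p of 1.76e-07, 5.92e-09 and 9.49e-08 by edgeR's quasi-likelihood test. Its nhr-1 RNAi mean was 2.07 CPM at 4 feedings and 2.499 CPM at 11, so a low level remained throughout. In the control library labelled 7 feedings it measured 4.06 CPM, below every other control library. That value lay above every nhr-1 RNAi library except s3 at 8 feedings, which measured 4.15 CPM.

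**Figure D5:**
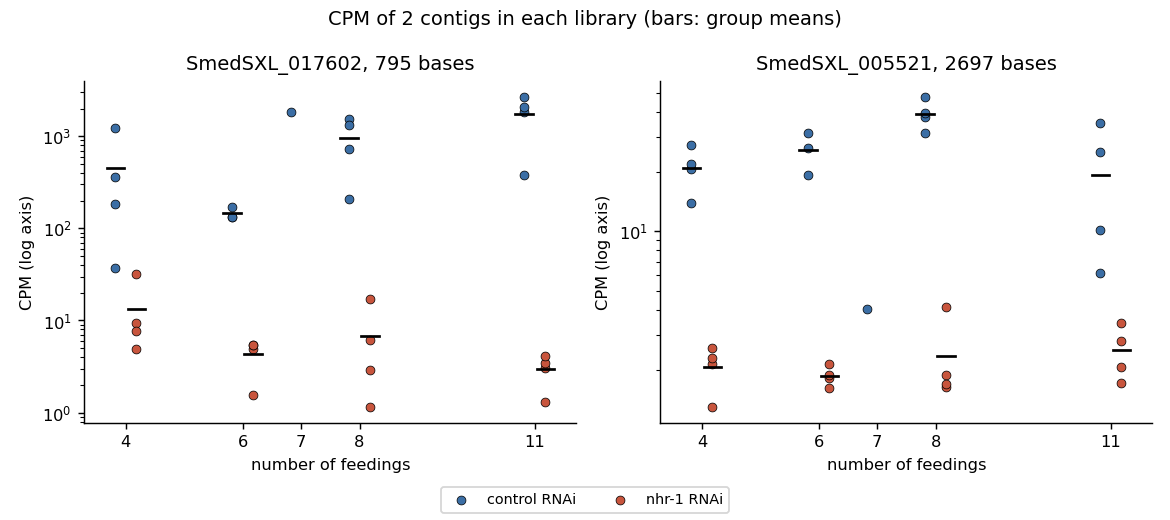
Each point is 1 library of the contig named above the panel; the horizontal axis is the number of feedings, the vertical log axis is CPM and bars are group means. At 11 feedings SmedSXL_017602 averaged 1747 CPM in the controls (blue) and 2.98 CPM under nhr-1 RNAi (red), and SmedSXL_005521 averaged 19.2 and 2.499 CPM.

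Other contigs showed the same range of courses. A contig of 391 bases had the highest mean level under nhr-1 RNAi at 4 feedings, whose values chose the contigs. Its means were 74.9, 23.9, 8.31 and 2.84 CPM at 4, 6, 8 and 11 feedings. In replicate 1 the level did not fall at each step, with 13.0, 2.52, 4.95 and 4.83 CPM. The difference between 11 and 6 feedings was not called (edgeR quasi-likelihood test, Benjamini-Hochberg adjusted p = 0.176). At 6 feedings its nhr-1 RNAi libraries measured 2.52 CPM in replicate 1 and 31.1, 28.7 and 33.3 CPM in s1, s2 and s3, against 409.6, 321.1 and 179.7 CPM in the controls. By contrast a contig of 1246 bases, 1 of the 17, averaged 9.42, 10.4, 9.73 and 8.24 CPM under nhr-1 RNAi at the 4 times. It was not called at 6 feedings (edgeR quasi-likelihood test, Benjamini-Hochberg adjusted p = 0.840), where its controls measured 10.1, 17.2 and 18.04 CPM, and at 11 feedings differed by -3.67 ± 0.67 (SE) on the log2 scale, with an adjusted p of 0.000130 by edgeR. A contig of 280 bases had the highest control level per kilobase at 11 feedings, 3436 CPM. Its control level there was 135.0, 151.3, 1228 and 2334 CPM in replicates 1, s1, s2 and s3, so that the mean rested on the 2 libraries that stand apart.

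At 11 feedings 2 contigs had 0 counts in all 4 nhr-1 RNAi libraries. The contig of 357 bases had 111 to 688 counts per control library and was at least 622-fold lower, taking 3 counts over the 4 nhr-1 RNAi libraries as the limit that 0 allows. The contig of 303 bases had 20 to 38 counts per control library and was at least 47.7-fold lower on the same limit. Without controls s2 and s3 the controls had 111 to 194 and 22 to 24 counts, and the bounds were 181-fold and 27.3-fold. A further 13 contigs had 1 to 3 counts over the 4 libraries, and 42 to 50 of the 57 contigs had under 10 counts in each nhr-1 RNAi library there. Fitted fold changes of such contigs depend on how a count of 0 is handled. With the 2 contigs at their bound the median log2 fold change over the 57 was -8.01.

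Between time points within nhr-1 RNAi, edgeR's quasi-likelihood test called none of the 57 contigs (Benjamini-Hochberg adjusted p under 0.05), and it called 0% of all tested sequences lower. Most of the 57 passed the filter through the controls, where they are high. In fits of the nhr-1 RNAi libraries compared alone, 14 passed it for 8 against 6 feedings, 10 for 11 against 6 and 10 for 11 against 8, and none was called. At an unadjusted p under 0.05, 2 contigs were lower at 8 than at 6 feedings (2.49% of all tested sequences), 12 at 11 than at 6 (2.81%) and 3 at 11 than at 8 (0.367%). DESeq2 called 0, 1 and 0 contigs lower in these comparisons, against 0%, 0.166% and 0% of all tested sequences. The unadjusted counts and those of DESeq2 cover all 57 contigs, including those that passed the filter only through the controls. No further fall is therefore read from them. The nhr-1 RNAi mean was lower at 11 than at 6 feedings in 49 contigs and at least 2-fold lower in 24, but the median fitted log2 difference of -1.12 was not resolved contig by contig.

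In the controls the mean level was higher at 11 than at 6 feedings in 48 of the 57 and at least 2-fold higher in 34, with a median log2 difference of 1.95 in the fit, beside -0.01 over all tested sequences. edgeR's quasi-likelihood test called 0 contigs at an adjusted p under 0.05 (0% of all tested sequences), 36 were higher at an unadjusted p under 0.05 (10.9% of all tested sequences), and DESeq2 called 22 (3.43%). Leaving out control replicate 1 at 11 feedings, which left s1, s2 and s3, raised the count of edgeR to 34 (8.08%). Of these controls, s2 and s3 are among the libraries that stand apart. With total counts, or without the 3 libraries that stand apart, edgeR called 0% of all tested sequences higher. In 20 contigs controls s2 and s3 at 11 feedings, in which the most abundant contig took over 30% of the SmedSXL counts, were both at least 2-fold above replicates 1 and s1, a count made after the values were seen. Without the 3 libraries that stand apart, which left 2 controls at 11 feedings, the median log2 difference was 0.21. Means of the 2 remaining controls were above those at 6 feedings in 35 contigs and at least 2-fold above in 17.

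The effect of nhr-1 RNAi was more negative at 11 than at 6 feedings in 56 contigs, with a median log2 difference of -3.09, beside 0.02 over all tested sequences. edgeR's test of that difference called 0 contigs (0% of all tested sequences) at an adjusted p under 0.05, while 33 were more negative at an unadjusted p under 0.05 (11.9% of all tested sequences) and DESeq2 called 13 (0.581%). Leaving out control replicate 1 at 11 feedings raised the count of edgeR to 20 (3.87%). The controls left there were s1 and the libraries s2 and s3 that stand apart. With total counts, or without the 3 libraries that stand apart, edgeR called 0% of all tested sequences more negative. Without the 3 libraries that stand apart the median log2 difference was -1.94. With all libraries in and no filter on low counts edgeR called 16 (0.178% of 172262 sequences), so whether single contigs passed depended on the tool and the filter. These counts cover all members, most of which passed the filter through the controls, where they are high. No change in the effect is therefore read from them.

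The contigs were also set against the comparison contigs in length, which the choice did not use, and in matches to other sequences, which rest in part on the 8 libraries at 4 feedings that it used. Their median length was 554 bases against 1357 bases, and 25 of the 57 (43.9%) were shorter than 500 bases against 9.25% of the comparison contigs. A contig with the prefix SmedASXL, read here as an assembly of asexual animals, tracked a member in 15 of 57 cases (26.3%), by a correlation of log2 counts over 0.99 across 31 libraries and totals within 5%. The same held for 69.2% of the comparison contigs. At a correlation over 0.95 the shares were 43.9% and 85.2%. The shares also differed within classes of length. Among contigs under 500 bases a match was found for 20% of members and 52.6% of comparison contigs, and among those of at least 1000 bases for 30.8% and 73.3%. Members had few counts under nhr-1 RNAi, and the part of this in their lower share was not tested. Of the SmedASXL contigs themselves, 31 of 83469 met the same conditions at 4 feedings, as did 0 of 531 sequences with accession-style identifiers.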

How the data were processed

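The deposited file is 1 table of whole-number read counts per reference sequence, used as the authors deposited them. Per the submitters' processing notes reads were aligned with Bowtie2; its version, the counter, the use of strand and the reference build, not given in the sources used here, were not assumed. Its columns, per the file headers, are identifier, sequence length and 32 libraries. Each column matched 1 library title, which left 0 columns unused. The 1 row without a sequence name, which holds 0 counts (0%), was dropped. Whether a read could be counted on more than 1 reference sequence is not known here. Contigs are therefore not taken as genes, and contigs that share sequence may share reads.

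CPM values were computed from the counts by scaling each library to its SmedSXL total without the most abundant contig, 3.09 to 7.71 M (mega) per library. Titles gave the groups and replicate names. Raw counts of 31 libraries were tested with edgeR 4.0.16 (R 4.3.3), by quasi-likelihood, with TMM factors (0.353 to 1.40), filterByExpr (minimum count 10, minimum total 15), 1 mean for each of 8 groups and no covariate. It tested 45762 sequences holding 99.2% of the counts, with Benjamini-Hochberg adjustment over all of them and a call at an adjusted p under 0.05. All 57 members passed the filter, which counts of the controls alone could satisfy. A standard error is the log2 fold change over the root of its F statistic. The script was tested on simulated counts. The members and lists were chosen with earlier results of these data known, so no p is given for the list, and the set of 57 comes from the values at 4 feedings.

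The contigs named are, by rule, the member called lower at 6, 8 and 11 feedings with the highest mean control level at 6 and 11 feedings, and the one with the highest ratio at 11 feedings. The rule's part for members not called named none. Contigs given by length were chosen after their values were seen. Replicate names were not taken as pairs in the main fit. At 6 and 11 feedings the deviations from the group means of libraries with the same name correlated at 0.576, 0.512 and 0.225, and at 0.427, 0.297 and 0.173. For s2 at 6 feedings and for s2 and s3 at 11 a library of another name correlated more highly, at 0.268, 0.31 and 0.197; the descriptions of 2 controls at 11 feedings give other names than the titles. At 4 feedings libraries with the same name correlated at 0.416, -0.0452, -0.62 and -0.0818 in replicates 1, s1, s2 and s3. At 8 feedings not every pair reached 0.1. Pairing by name was thus not established. The alternatives were total counts, DESeq2 1.42.0, no filter, SmedSXL contigs only, only the groups compared, a replicate block, subsets of libraries, and leaving out each library. Intervals and limits for a count of 0 cover counting error only. Plots were drawn with matplotlib 3.10.9.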

Additional observations from a re-analysis of the deposited data

Results flagged for a closer look

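The highest or lowest library of a group was compared with its neighbours by Dixon's criterion at the 95% level, for 4 quantities in each of 7 groups of 4 libraries. Of 28 such groups 6 stood out. The 8 groups at 4 feedings hold values that chose the contigs; of the other 20 groups 4 stood out, where chance flags about 1 in 20. The quantities share libraries, so these are not independent. Their causes were not tested.

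For the summed level of the 57 contigs, control replicate s1 at 4 feedings stood at 6054 CPM while the other 3 controls lay between 3221 and 3241 CPM. This library is the one that raised the 17 contigs described above. Without it the rule found 42 contigs, 38 of them among the 57. At 6 feedings nhr-1 RNAi replicate 1 had the lowest summed level, 62.3 CPM, against 130.1 to 140.2 CPM in the other 3 libraries. At 11 feedings nhr-1 RNAi replicate s4 had the highest median level of the contigs, 0.550 CPM, against 0.361 to 0.382 CPM. That library also had the most counts of its group, 459 on the 57 contigs, and the median rests on contigs with few counts.

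SmedSXL_017602 measured 31.6 CPM in nhr-1 RNAi replicate s2 at 4 feedings, against 4.95 to 9.33 CPM in the other 3 libraries. In that library the most abundant contig took 36.9% of the SmedSXL counts. At 6 feedings the same contig was lowest in nhr-1 RNAi replicate 1, at 1.55 CPM against 4.87 to 5.44 CPM. SmedSXL_005521 was highest in nhr-1 RNAi replicate s3 at 8 feedings, at 4.15 CPM against 1.63 to 1.88 CPM, the library in which the median contig also kept the most, 3.23% of its control level at 4 feedings.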

How the results depend on the processing

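Of 307 recomputed values for 21 results, 276 kept their direction and their side of the threshold or stayed within the allowed range, and none reversed. For counts of contigs called only a move could be recorded, not a reversal. The counts called lower ranged from 46 to 52 at 6 feedings, 56 to 57 at 8 and 56 to 57 at 11. These ranges cover the alternatives that began with all members. The 56 at 11 feedings were all that passed the filter in a fit of the groups compared. Without the 17 contigs led by control s1 at 4 feedings the counts were 40, 40 and 40 of 40. Among the 27 contigs found whichever library at 4 feedings was left out the counts were 27, 27 and 27. With the replicate block they were 49, 56 and 57, and no count of calls moved by over 1.5 times with it. Between 11 and 6 feedings within nhr-1 RNAi, calls moved from 0 to 2 with no filter (0.0586% of all sequences tested) and to 1 with total counts (0.101%), with libraries named with s (0.151%), without the 3 libraries that stand apart (0.152%) and with DESeq2 (0.166%), and ranged from 0 to 1 when 1 library was left out. In the controls they moved to 22 with no filter (0.294%) and with DESeq2 (3.43%) and to 1 with libraries named with s (0.0219%), and ranged from 0 to 34 when 1 library was left out. For the difference of the effects they moved to 16 with no filter (0.178%), 3 with libraries named with s (0.303%) and 13 with DESeq2 (0.581%), and ranged from 0 to 20 when 1 library was left out. Most of the contigs are high only in the controls, so no change in the effect is read from these counts. The median log2 fold change at 11 feedings was -6.997 with total counts and -6.96 without the 3 libraries, and -8.43 to -7.60 when 1 library was left out. The median share left was 8.18%, 5.45% and 2.85% with 1 CPM added and, at 11 feedings, 0.468% with none and 1.24% without the 2 controls dominated by 1 contig. The causes of these moves were not tested. The rule itself found 95 contigs with no condition on overlap, 41 on TMM-scaled libraries, of which 37 were shared, and 42 to 103 when 1 library at 4 feedings was left out, the most without nhr-1 RNAi s2 and 99 without control s3. The fold changes of both named contigs kept direction and call throughout. Under nhr-1 RNAi at 11 feedings few counts limit the precision for most single contigs, 42 to 50 of the 57 having under 10 counts in each library.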
